A study of Homo sapiens with 4 samples.

Results

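RNA polymerase II transcribes the protein-coding genes, and Mediator is the large complex that carries signals from DNA-bound activators to it. The genes described here encode the subunits of both, together with the cyclin-dependent kinase trio of the general factor TFIIH. They were taken by name from the annotated gene rows: POLR2A to POLR2L, the genes named MED with a number (MED12L and MED13L included), and CDK7, CCNH, MNAT1, CDK8, CDK19 and CCNC, when protein-coding and at a TPM (a relative, length-corrected transcript abundance) of at least 1 in at least 2 libraries. All 48 genes with these names met that minimum, out of 37247 gene rows in the table and 12947 rows that met it. They comprise 12 polymerase subunits, 33 Mediator genes with the kinase module included, and 3 genes of the CDK-activating kinase.

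The libraries came from AMO1, an established human plasmacytoma line of wild-type genotype used as a myeloma model. The cells were grown for 6 h with the DMSO vehicle at 0.10% or with periplocin at 0.2 mM, a dose given as the labels state it. Periplocin is a cardiac glycoside, a plant steroid that inhibits the sodium and potassium pump, and the study asks how such drugs lower c-Myc. Each group had 2 libraries, 4 in all, and the labels name no other genotype or agent. The labels do not state that the libraries of a group were separate cultures, so a p-value here weighs a difference only against library-to-library spread, and that spread may be technical. In bulk RNA, fewer cells of a kind and less RNA per cell cannot be told apart, and TPM shows shares of the RNA rather than amounts. Library values are given below in the order of their replicate numbers.

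The line carried plasma cell transcripts: all 7 plasma cell markers were expressed, with SDC1, the surface proteoglycan syndecan-1, between 2182 and 2403 TPM. Of these 7 markers 4 fell with periplocin: XBP1, PRDM1, IRF4 and MZB1 (limma adjusted p from 0.00445 to 0.0373), beside 18.9% lower among all tested genes. SDC1, CD38 and TNFRSF17 did not pass, with log2 fold changes of -0.02, -0.07 and 0.11. The summed level of the 3 B cell markers was 0.269 to 0.752 TPM with DMSO and 0.237 to 0.522 with periplocin. The 3 markers of T or NK cells summed to 4.30 to 6.63 TPM with DMSO and 3.19 to 3.49 with periplocin. CD2 was listed at 0 in all 4 libraries, and only NKG7 was called lower (limma adjusted p = 0.0465). CD3E went the other way and did not pass, with overlapping groups (log2 fold change 0.23, limma adjusted p = 0.579). The part of these marker changes in the results below was not tested. The myeloid and fibroblast lists stayed at or under 2.47 TPM in every library. Between 12357 and 12915 genes reached a TPM of 1 in a library, and the number of reads behind a value is unknown because TPM keeps no depth.

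The polymerase has a catalytic pair, POLR2A and POLR2B, surrounded by smaller subunits, 5 of which are also built into RNA polymerases I and III. The tail of POLR2A is a run of short repeats that CDK7 phosphorylates as transcription starts. Mediator has a head and a middle that touch the polymerase, a tail that meets activators, MED14 as the backbone, and a detachable kinase module of CDK8 or CDK19, cyclin C, MED12 and MED13 that governs Mediator's contact with the polymerase. Genes were assigned to these modules from the known structure of the human complexes.

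Promoters of called genes are shown first, since they are the regulatory sequence closest to the transcripts measured. Of the 48 genes 36 had a window in the RefSeq promoter table (build GRCh38.p14). For each direction, the 2 called genes of largest change with a lone start in that table were chosen, from genes with at least 100 bases clear of exons annotated in GENCODE 29. MED12 and MED17 were higher with periplocin, and MED29 and MED18 were lower. CDK19, MED13, MED31 and MED15 rose more than MED17 but did not meet these conditions. Bases are on the gene's strand, 5′ to 3′, and lie within the 250 bases before the RefSeq start. Capitals mark matches, on either strand, to any of 6 motifs, a list chosen after the data were seen: the TATA box (TATAAA), the CCAAT box (CCAAT), the GC box (GGGCGG), the E-box bound by MYC (CACGTG), the ETS core (CCGGAA) and the NRF1 core (GCGCATGC). MED12 (chrX:71118346-71118555, plus strand), MED17 (chr11:93784032-93784226, plus strand), MED29 (chr19:39391196-39391302, plus strand) and MED18 (chr1:28328790-28329001, plus strand) read as follows.
MED12: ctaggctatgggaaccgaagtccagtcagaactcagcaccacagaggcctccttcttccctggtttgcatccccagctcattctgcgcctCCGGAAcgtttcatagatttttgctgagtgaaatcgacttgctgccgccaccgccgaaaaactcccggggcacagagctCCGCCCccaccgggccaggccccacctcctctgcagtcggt
MED17: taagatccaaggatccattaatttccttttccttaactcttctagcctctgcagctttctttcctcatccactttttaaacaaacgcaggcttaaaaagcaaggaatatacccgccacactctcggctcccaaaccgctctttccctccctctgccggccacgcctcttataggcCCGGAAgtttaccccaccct
MED29: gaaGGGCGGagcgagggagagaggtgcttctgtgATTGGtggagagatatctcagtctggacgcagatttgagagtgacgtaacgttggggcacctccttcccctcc
MED18: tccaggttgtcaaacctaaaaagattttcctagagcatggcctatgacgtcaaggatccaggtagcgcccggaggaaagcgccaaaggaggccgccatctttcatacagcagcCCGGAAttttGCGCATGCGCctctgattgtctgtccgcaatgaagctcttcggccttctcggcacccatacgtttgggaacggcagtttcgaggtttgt

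MED12, MED17 and MED18 each held 1 ETS core in the stretch shown, MED29 held 1 CCAAT box and 1 GC box, MED12 also held 1 GC box, and MED18 held 2 overlapping matches to the NRF1 core, 1 on each strand. None of the 4 held a TATA box or an E-box there. The stretches end at -41 (MED12), -56 (MED17), -76 (MED29) and -39 (MED18) from the start. Bases nearer to it are not covered by these counts, so they cannot show that a TATA box is absent. Over the 250 bases before the start, an ETS core was in 14 of the 36 genes (38.9%), against 17.2% of the 27305 genes in the promoter table. A GC box was in 24 of 36 (66.7%), against 46.2% of all, a CCAAT box in 10 of 36 (27.8%) against 37.0%, and an NRF1 core in 4 of 36 (11.1%) against 3.22%. A TATA box was in 2 of 36 (5.56%) against 13%, and the E-box in 3 of 36 (8.33%) against 7.73%. Of the genes called higher 4 of 7 with a window held the ETS core, and of those called lower 2 of 5 did. These are matches of letters, not sites shown to be bound. The 27305 genes were not filtered by TPM as the members were, and the part of that filter in these differences was not tested.

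The summed level of the 48 genes was 2271 and 2269 TPM with DMSO and 2274 and 2267 TPM with periplocin. Within that sum, 8 genes rose and 6 fell (limma, adjusted p under 0.05 over all tested genes), and 34 did not pass. As a share, 16.7% of the members rose against 10.4% of all tested genes, and 12.5% fell against 18.9%. In either direction 29.2% of the members were called, against 29.3% of all tested genes, so the share of called members was that of genes at large. The groups did not overlap, with both periplocin libraries above, in 18 members (37.5%, against 25.4% of all tested genes). They did not overlap, with both below, in 17 members (35.4%, against 43.4%). The median log2 fold change of the members was 0.04, beside -0.14 for all tested genes.

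All 8 genes that rose encode Mediator subunits: CDK19, MED12 and MED13 of the kinase module, MED31, MED1 and MED10 of the middle, MED17 of the head and MED15 of the tail. The 6 that fell were MED29 and MED16 of the tail, MED18 and MED11 of the head, and the polymerase subunits POLR2I and POLR2F. With median-of-ratios size factors, which move the median of all tested genes from -0.14 to -0.01, 9 members were higher (15.5% of all tested genes) and 2 were lower (13.5%), so the number of lower members depends on the scaling. No gene in the table passed when either DMSO library was left out, in fits with 1 residual degree of freedom where the lone DMSO library is assumed to vary like the periplocin ones (limma; without replicate 1 and without replicate 2, 3925 and 4156 genes had an unadjusted p under 0.05, 11 and 16 of them members, against 5585 and 20 with all libraries).

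**Figure D1:**
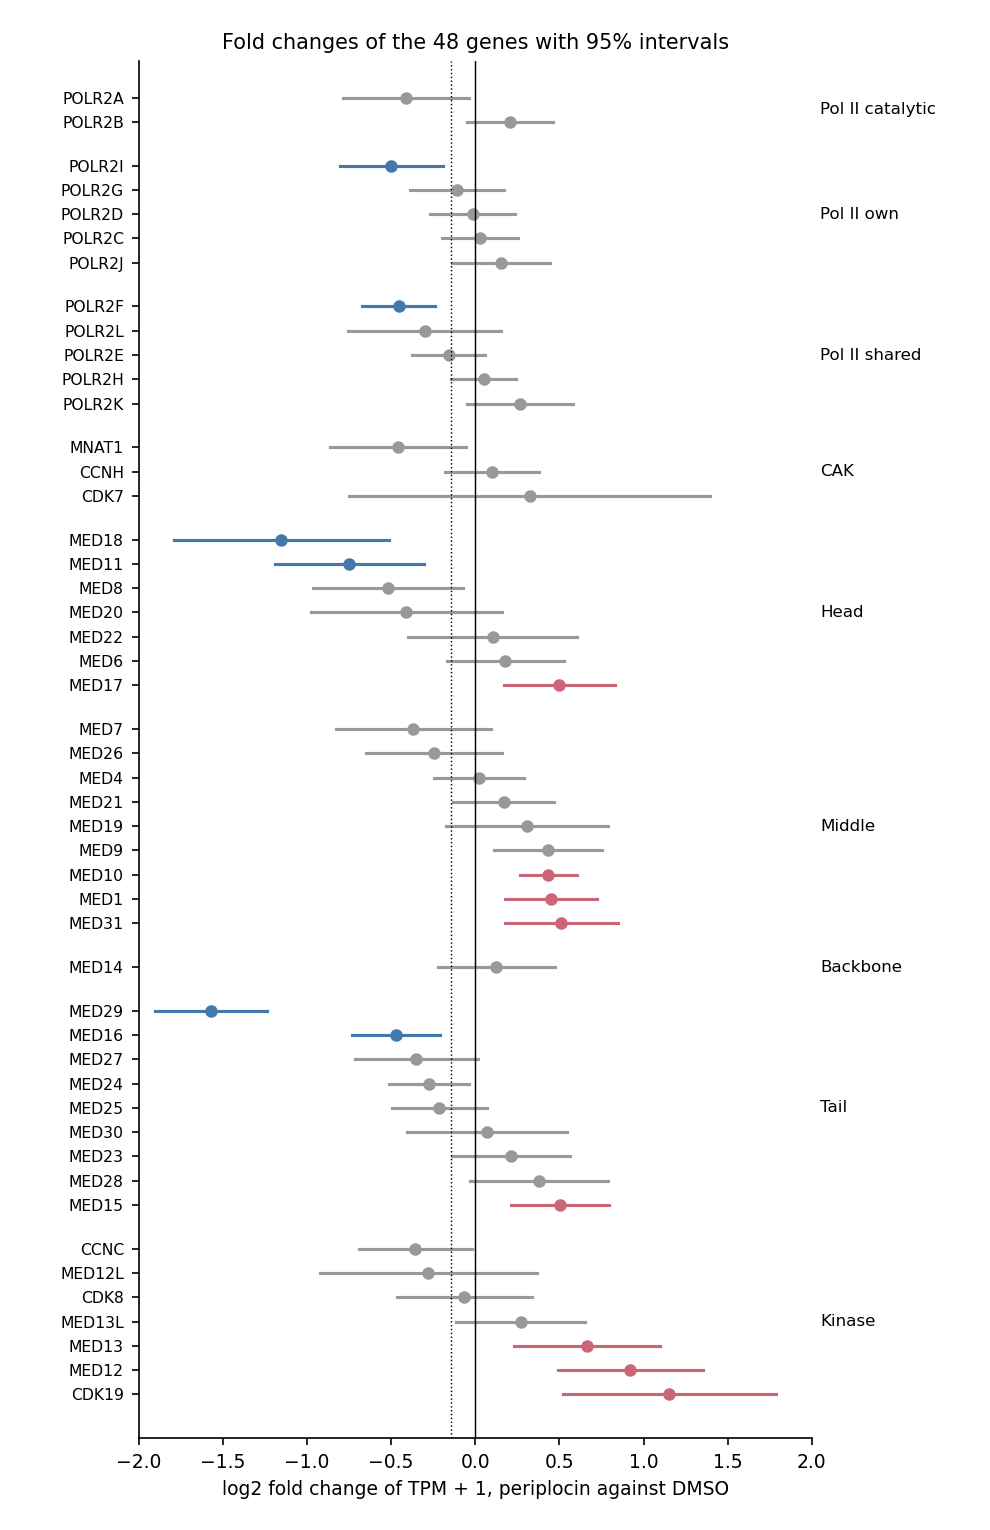
Log2 fold change of TPM + 1 for each of the 48 genes, periplocin against DMSO (2 libraries each), grouped by module, with limma's 95% intervals as bars. Red marks called higher, blue called lower and grey not called, and the dotted line is the median of all tested genes (-0.14); the kinase module and the middle hold 6 of the 8 red points, and MED29 (-1.57) lies furthest left.

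In the polymerase itself the transcripts of the large subunits did not pass in either direction. POLR2A, the largest subunit (chromosome 17, 7484366 to 7514616 on GRCh38), stood at 41.6 and 46.6 TPM with DMSO and 37.2 and 29.01 TPM with periplocin. POLR2B, the second catalytic subunit, stood at 74.2 and 82.5 TPM and at 95.1 and 85.8 TPM. The libraries of the groups did not overlap for either gene, with POLR2A lower and POLR2B higher under periplocin, and neither difference passed. The log2 fold change was -0.41 for POLR2A (95% interval -0.78 to -0.04, limma adjusted p = 0.0914) and 0.20 for POLR2B (-0.05 to 0.46, limma adjusted p = 0.187). POLR2B was called higher with median centring (0.37, limma adjusted p = 0.0420).

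Among the 5 other subunits that only polymerase II uses, POLR2I fell and the rest did not pass. POLR2I, which lies at the jaw of the enzyme and acts in transcription fidelity, stood at 91.4 and 78.5 TPM with DMSO and at 64.6 and 55.2 TPM with periplocin. All DMSO values were above all periplocin values, which gave a log2 fold change of -0.50 (standard error, SE, 0.13, limma adjusted p = 0.0324). It did not pass with size factors (-0.35, limma adjusted p = 0.0918). POLR2I shares 417 exonic bases, 32.9% of its exons, with TBCB on the other strand, a gene at up to 143.5 TPM, and without strand the reads of both genes cannot be told apart. ENSG00000279504, also on the other strand and without a row in the table, overlaps 61.9% of the exons of POLR2I. POLR2J, which dimerises with POLR2C at the base of the enzyme, stood at 86.6 and 70.8 TPM and at 87.3 and 86.8 TPM. POLR2D, which forms the stalk with POLR2G, stood at 59.6 and 65.5 TPM and at 59.5 and 64.3 TPM. The POLR2D groups overlapped, and for POLR2J both treated libraries lay just above the higher DMSO library. POLR2C (0.03), POLR2G (-0.11), POLR2D (-0.02) and POLR2J (0.15) had 95% intervals between -0.39 and 0.44 on the log2 scale and did not pass. Closely named relatives of POLR2J were in the table as well: 2 rows named POLR2J3 were lower with periplocin, at 40.7 and 35.3 against 27.5 and 18.6 TPM for the first and 53.7 and 52.8 against 41.4 and 34.7 TPM for the second (log2 fold changes -0.72 and -0.48, limma adjusted p = 0.0430 and 0.0340). Reads can be split among these near-copies, so the values of POLR2J are uncertain.

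Of the 5 subunits shared with polymerases I and III, POLR2F fell. POLR2F, an assembly subunit near the base of the clamp, stood at 95.1 and 90.4 TPM with DMSO and at 68.6 and 66.2 TPM with periplocin. The groups were far apart relative to their spread, with a log2 fold change of -0.46 (SE 0.09, limma adjusted p = 0.0163). With size factors it lost its call narrowly (-0.31, limma adjusted p = 0.0505). POLR2E had the highest mean level over the 4 libraries of all 48 genes, at 275 and 249 TPM with DMSO and 246 and 224 TPM with periplocin. POLR2K had the lowest mean of the shared subunits over the 4 libraries, at 50.8 and 49.7 TPM and at 54.5 and 67.4 TPM. Neither passed, with log2 fold changes of -0.16 and 0.27. POLR2H was at 0.05 and POLR2L at -0.30, and neither passed. The DMSO libraries differed widely for POLR2L, at 100.8 and 71.6 TPM, and 22.5% of its exons overlap CD151 on the other strand.

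The CDK-activating kinase of TFIIH phosphorylates the tail of POLR2A and activates the cell cycle kinases. Its 3 genes did not pass in either direction. CCNH, the cyclin, stood at 54.2 and 63.0 TPM with DMSO and at 60.6 and 64.8 TPM with periplocin. MNAT1, the assembly factor, stood at 39.0 and 37.4 TPM and at 23.6 and 32.1 TPM. The MNAT1 groups did not overlap (log2 fold change -0.46, limma adjusted p = 0.0852), and the CCNH groups did (0.10, limma adjusted p = 0.544). MNAT1 was called lower after a trend with transcript GC content and length was removed (-0.54, limma adjusted p = 0.0316). CDK7, the kinase, was listed at 1.64 and 5.50 TPM with DMSO and at 4.003 and 4.37 TPM with periplocin, the lowest mean level among the trio and one with a large gap between the DMSO libraries. Its fold change of 0.32 had an interval from -0.75 to 1.40 (limma adjusted p = 0.606), the widest of all 48 genes. That level is low for a kinase that every cell uses. Rows with no place in the primary assembly of GENCODE 29 held 3.14% to 3.47% of all TPM, and whether reads of CDK7 were counted there was not tested.

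In the Mediator head, 2 of 7 genes fell, 1 rose and 4 did not pass, beside 18.9% lower and 10.4% higher among all tested genes. No test set a module against other genes. MED18, which forms a movable head domain with MED20, stood at 9.71 and 9.75 TPM with DMSO and at 2.90 and 4.98 TPM with periplocin. Both treated libraries lay below both DMSO libraries, though they differed from each other (log2 fold change -1.15, SE 0.26, limma adjusted p = 0.0239). MED11, which pairs with MED22, stood at 17.6 and 16.1 TPM and at 10.9 and 8.49 TPM (log2 fold change -0.75, limma adjusted p = 0.0283). MED11 did not pass with size factors (-0.61, limma adjusted p = 0.0520) and neither gene did with quantile normalization (limma adjusted p = 0.0520 for MED18 and 0.0730 for MED11). On the other strand ENSG00000261898, which has no row in the table, overlaps 31.1% of the exons of MED11. CXCL16, at no more than 1.71 TPM, overlaps 5.8% of them. MED17, the central scaffold of the head, went the other way, at 18.6 and 17.9 TPM with DMSO and 24.7 and 27.9 TPM with periplocin (log2 fold change 0.50, limma adjusted p = 0.0392). Its transcript overlaps another row of the table, at no more than 0.608 TPM, over 12.98% of its exons. On the other strand TAF1D, a gene at up to 131.4 TPM, shares 88 exonic bases with MED17, 0.530% of its exons.

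The head genes that did not pass were spread around 0. MED6, the most abundant head gene by its mean over the 4 libraries, stood at 30.7 and 38.1 TPM with DMSO and at 37.2 and 40.6 TPM with periplocin. MED20, the least abundant by that mean, stood at 6.69 and 8.70 TPM and at 4.81 and 6.27 TPM. The MED6 groups overlapped and those of MED20 did not, with log2 fold changes of 0.18 and -0.41. MED8 (-0.52, limma adjusted p = 0.0798) and MED22 (0.10) were also not called. MED18 and its partner MED20 both had lower values in each treated library than in each DMSO library, as had 43.4% of all tested genes. The groups of MED22, the partner of MED11, overlapped.

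In the middle, 3 of 9 genes rose (10.4% of all tested genes), none fell (18.9%) and 6 did not pass. MED10, with MED14 part of the hook that meets the polymerase and by far the most abundant Mediator gene, stood at 188 and 190 TPM with DMSO and at 257 and 255 TPM with periplocin. The libraries of a group lay close together and the groups far apart (log2 fold change 0.44, SE 0.07, limma adjusted p = 0.00951). MED1, the subunit bound by nuclear receptors, stood at 28.7 and 30.8 TPM and at 40.7 and 41.3 TPM (log2 fold change 0.45, limma adjusted p = 0.0306). MED31, a small conserved subunit, stood at 15.9 and 16.9 TPM and at 22.7 and 24.9 TPM (0.51, limma adjusted p = 0.0383). For MED31, 58.4% of the exonic bases overlap TXNDC17 on the other strand, a gene at up to 63.1 TPM, so its level is uncertain.

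MED9 missed the threshold narrowly, at 15.97 and 16.5 TPM with DMSO and at 22.3 and 22.2 TPM with periplocin (log2 fold change 0.43, limma adjusted p = 0.0544). It was called higher with size factors (0.57, limma adjusted p = 0.0243). MED7, with the lowest mean of the middle genes over the 4 libraries, stood at 7.84 and 8.79 TPM and at 6.09 and 6.32 TPM (-0.37, limma adjusted p = 0.187). MED26, the subunit that brings in elongation factors, was at -0.24, and MED4 at 0.02, MED21 at 0.17 and MED19 at 0.31 did not pass either. Of the 9 middle genes 6 had both treated libraries above both DMSO libraries (25.4% of all tested genes) and 2 had them below (43.4%). The summed level of the middle was 385 and 393 TPM with DMSO and 476 and 494 TPM with periplocin. MED10, whose mean went from 188.9 to 255.8 TPM, made up most of that difference. MED14, the backbone, stood at 27.5 and 34.3 TPM and at 32.8 and 34.4 TPM, with overlapping groups (0.13, limma adjusted p = 0.538).

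In the tail, 2 of 9 genes fell, 1 rose and 6 did not pass, shares near the 18.9% lower and 10.4% higher of all tested genes. MED29, a subunit of the upper tail next to the head (chromosome 19, 39391303 to 39400637 on GRCh38), had the largest change of all 48 genes. It stood at 33.8 and 31.4 TPM with DMSO and at 10.1 and 10.5 TPM with periplocin. The treated mean was 31.6% of the DMSO mean, far outside the spread of either group (log2 fold change -1.57, SE 0.14, limma adjusted p = 0.00361). MED29 passed in all 11 alternatives that kept the 4 libraries, with log2 fold changes from -1.65 to -1.41 and limma adjusted p from 0.00110 to 0.0315, and without periplocin replicate 1 or 2 as well. It did not pass without DMSO replicate 1 or 2 (limma adjusted p = 0.0976 and 0.0839). MED16, which anchors the lower tail, stood at 48.3 and 52.7 TPM and at 35.8 and 36.5 TPM (log2 fold change -0.47, limma adjusted p = 0.0243). It did not pass with size factors (-0.33, limma adjusted p = 0.0615).

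MED15, a tail subunit that many activators bind, rose from 28.6 and 29.7 TPM with DMSO to 44.3 and 39.3 TPM with periplocin (log2 fold change 0.50, limma adjusted p = 0.0269). MED24, the most abundant tail gene, stood at 106 and 111 TPM and at 95.6 and 84.8 TPM, and MED30, the least abundant by its mean over the 4 libraries, at 13.6 and 9.96 TPM and at 12.2 and 12.4 TPM. With periplocin alone MED29 was lower than MED30. The MED24 groups did not overlap (-0.27, limma adjusted p = 0.0827) and those of MED30 did (0.07). MED23 (0.21), MED25 (-0.21), MED27 (-0.35) and MED28 (0.38) did not pass. MED25 and MED23 are known as contacts of activators of signalling pathways.

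**Figure D2:**
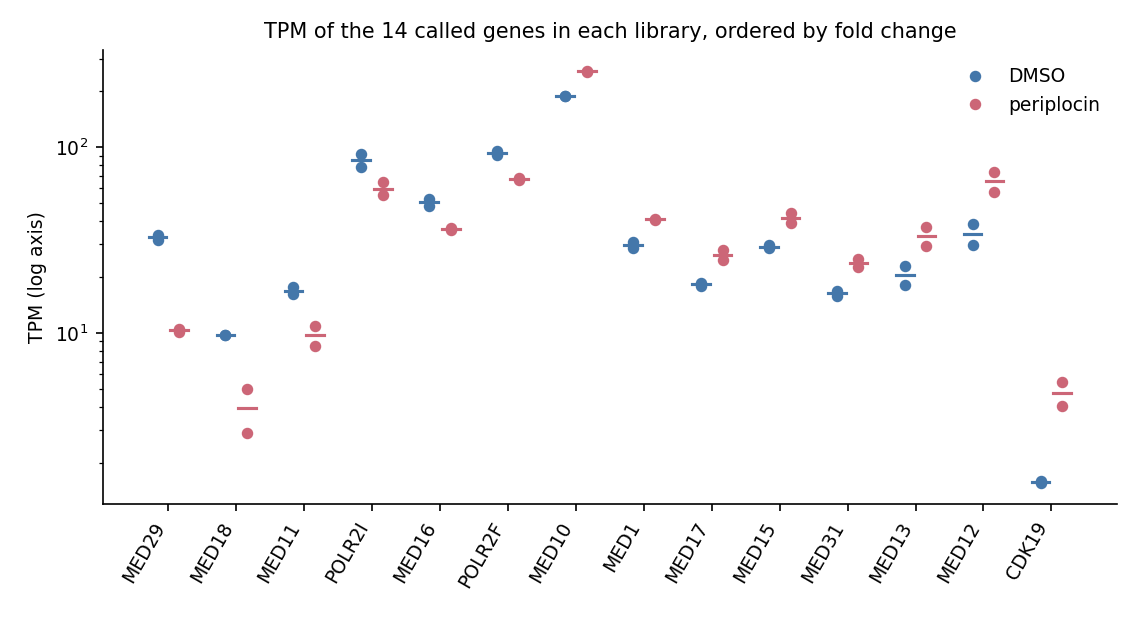
TPM on a log axis of the 14 called genes, ordered by fold change, with a point for each library and a line at the mean of each group (2 libraries each). The groups do not overlap for any of the 14, which adds nothing to the calls because these were made on the same values. Among all tested genes the groups lie apart in 25.4% with periplocin above and in 43.4% with it below. MED29 goes from 33.8 and 31.4 TPM to 10.1 and 10.5 TPM, and CDK19 is the gene with the lowest DMSO level.

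The kinase module had 3 of 7 genes higher (10.4% of all tested genes), none lower (18.9%) and 4 that did not pass. CDK19, the vertebrate paralog of CDK8, stood at 1.59 and 1.55 TPM with DMSO and at 4.06 and 5.45 TPM with periplocin. Every treated value was above every DMSO value, with a log2 fold change of 1.15 (SE 0.26, limma adjusted p = 0.0232), and 1.53 with a pseudocount of 0.1, which understates low genes less. CDK8 stood at 15.5 and 19.5 TPM and at 16.7 and 16.4 TPM, with overlapping groups and a log2 fold change of -0.06 (95% interval -0.47 to 0.34). CDK19 was thus 9.33% and 7.36% of the summed TPM of the kinase pair with DMSO and 19.6% and 24.9% with periplocin.

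MED12, which activates the kinase, stood at 29.8 and 38.4 TPM with DMSO and at 57.2 and 73.9 TPM with periplocin (log2 fold change 0.92, SE 0.18, limma adjusted p = 0.0151). The lowest treated value was well above the highest DMSO value, although the libraries of each group differed. MED12L, its paralog, stood at 4.32 and 3.85 TPM and at 3.93 and 2.56 TPM, with overlapping groups (-0.28, 95% interval -0.92 to 0.37). MED12L was 12.7% and 9.11% of the summed TPM of the pair with DMSO and 6.43% and 3.34% with periplocin. For MED12L 28.8% of the exons overlap IGSF10 on the other strand, a gene at no more than 1.78 TPM.

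MED13, which links the module to the core of Mediator, stood at 18.2 and 22.9 TPM with DMSO and at 29.3 and 37.0 TPM with periplocin (log2 fold change 0.67, limma adjusted p = 0.0375). Its call was lost after removal of the trend with GC content and length (0.41, limma adjusted p = 0.0702). MED13L stood at 15.96 and 14.1 TPM and at 17.0 and 19.6 TPM (0.27, 95% interval -0.11 to 0.65), and was 46.8% and 38.1% of the summed TPM of that pair with DMSO and 36.8% and 34.6% with periplocin. Both MED13 genes had treated values above all DMSO values, as had 25.4% of all tested genes, and MED13L did not pass. CCNC, the cyclin of the module, had its highest mean over the 4 libraries, though below MED12 in both treated ones. It stood at 57.3 and 66.5 TPM and at 43.6 and 52.9 TPM (-0.36, limma adjusted p = 0.101). The CCNC groups did not overlap, with periplocin below (43.4% of all tested genes), in the direction opposite to MED12, MED13 and CDK19. CCNC was called lower with replicate numbers as a block (limma adjusted p = 0.0276). It was also called lower after the trend with GC content and length was removed. Differences in fold change between the genes of a pair were not tested.

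**Figure D3:**
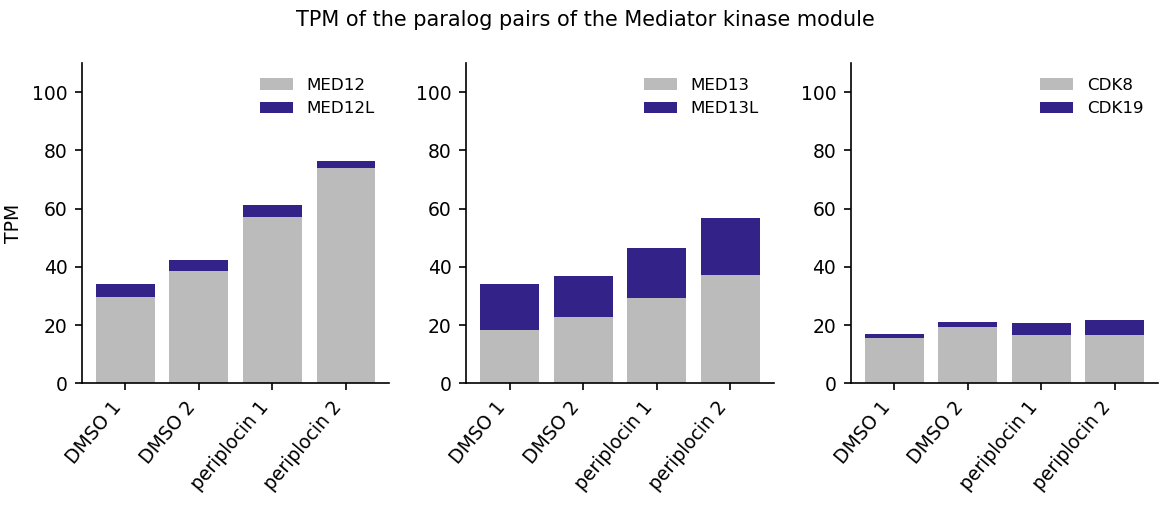
TPM of MED12 with MED12L, MED13 with MED13L and CDK8 with CDK19 in each of the 4 libraries, stacked within a bar that starts at 0. CDK19 goes from 9.33% and 7.36% of its pair with DMSO to 19.6% and 24.9% with periplocin, while CDK8 stays between 15.5 and 19.5 TPM.

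The genes that rose and fell also differed in the medians of features that the naming rule did not use, while their ranges overlapped. Transcript GC content, taken from the longest GENCODE transcript, had a median of 44.2% in the 8 higher members, 55.4% in the 6 lower ones and 45.4% in the 34 not called. It ran from 38.7% to 61.7% in the higher members and from 49.5% to 64.8% in the lower ones. The median length of that transcript was 5493 bases in the higher members (1141 to 10465) and 1969.5 bases in the lower ones (833 to 3653). In those not called it was 2537.5 bases. Across the 48 genes, Spearman's rho of the fold change was -0.31 with GC content, 0.28 with transcript length and 0.20 with the span of the gene. Across all tested genes with a transcript (12406) rho was -0.17 with GC content and 0.13 with length, and with the span (12415 genes) it was 0.12. These are descriptions across genes of the same 4 libraries, which are not independent replicates. When a trend of each library with GC content and length was removed, an alternative chosen after the data were seen, 8 members were higher (12.1% of all tested genes) and 7 lower (21.1%), and 12 of the 14 calls were kept, MED13 and MED16 being lost.

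Other genes of the same machinery were read from lists of the general transcription factors, of assembly factors and tail phosphatases of polymerase II, and of the subunits that polymerases I and III do not share with II. Of 27 general transcription factor genes tested 2 rose and 5 fell, with a median log2 fold change of -0.23. Among all tested genes 10.4% rose and 18.9% fell, with a median of -0.14, so these counts were near the background. GTF2H3 and ERCC2, of the TFIIH core that carries CDK7, fell from 22.2 and 31.7 TPM to 9.37 and 8.49 TPM and from 40.9 and 40.3 TPM to 22.5 and 13.4 TPM (log2 fold changes -1.47 and -1.18, limma adjusted p = 0.00665 and 0.0169). GTF2A1, a TFIIA subunit, fell by 1.18 on the log2 scale, and GTF2E2, a TFIIE subunit, rose by 0.80 (limma adjusted p = 0.00877 and 0.0161). The groups did not overlap for any of these 4 genes, which adds nothing to the calls because these were made on the same values.

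Of 15 assembly and phosphatase genes 2 rose (10.4% of all tested genes) and none fell (18.9%): CTDSP2, a phosphatase of the polymerase tail (0.41, limma adjusted p = 0.0204), and RPRD1B, which binds that tail (0.45, limma adjusted p = 0.0402). The median of the list was -0.04. Of 18 subunits of polymerases I and III 8 fell (18.9% of all tested genes) and none rose (10.4%), with a median of -0.47 beside -0.14 for all tested genes. The largest changes there were in POLR3GL (-1.29), POLR1G (-1.10), POLR1E (-0.94) and POLR3B (-0.87), with limma adjusted p of 0.00374, 0.00638, 0.0107 and 0.0281. The 12 polymerase II subunits had a median of -0.06 with 2 lower, and whether the 3 polymerases differ was not tested.

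How far each call held is shown for the 14 genes. With no filter on low values 1 member was higher (2.89% of all tested genes) and 2 were lower (4.83%), these being MED10, MED29 and POLR2F. Without the mean-variance trend 2 were higher (6.77%) and 3 lower (14.9%), these being CDK19, MED12, MED29, MED18 and MED11. Without periplocin replicate 1 the called members were MED12 and MED29, and without periplocin replicate 2 they were MED18 and MED29. The signs of all 14 fold changes were kept under every setting run.

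**Figure D4:**
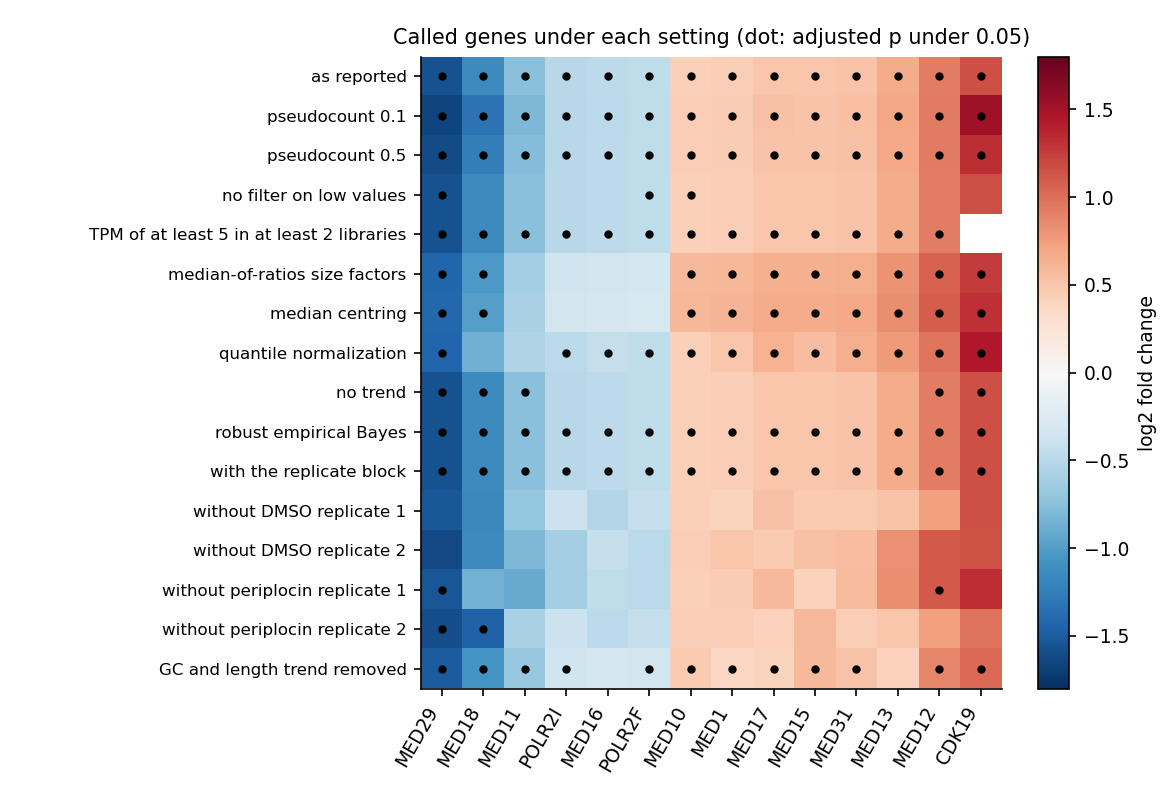
Log2 fold change (colour) of the 14 called genes under each setting, from the reported one at the top, with a dot where the limma adjusted p is under 0.05. The white cell is CDK19, not tested where a TPM of at least 5 was asked; MED29 has a dot in every setting that kept both DMSO libraries.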

How the data were processed

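Total RNA of AMO1 cells was read by Illumina sequencing from both ends, per the labels' protocols. The authors deposited 1 table of TPM values per gene and library. The submitters' processing notes list GRCh38 and DESeq2 without saying what each was used for. Aligner, quantifier and annotation: not given in the sources used here. TPM keeps no depth, so no counting interval can be given.

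Columns written PP were read as periplocin from the sample titles. Current symbols came from a gene name table and positions from GENCODE 29, in whose primary assembly 2627 of the 37247 rows had no place. The 12947 rows with 1 TPM or more in 2 or more libraries were tested on log2(TPM + 1) with limma-trend (limma 3.58.1 in R 4.3.3). Tests were two-sided, and p-values were adjusted by Benjamini-Hochberg across all of these rows, with a threshold of 0.05. Fold changes on this scale are understated for low genes. There were 2 residual and 4.01 prior degrees of freedom, and an exact permutation test of 2 against 2 cannot go below p = 0.333. The procedure was tested on simulated data for the bias and sign of fold changes and the share of false calls. That test set no minimum for the share of true changes found, so a member not called can still have changed. Alternatives changed the pseudocount, filter, scaling, trend, empirical Bayes step, replicate pairing and libraries.

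Values are given in each library for called members, paralog pairs and the most and least abundant member of each module. Where a module had no call, the member of largest change in each direction is given too, and of each related list up to 4 called genes of largest change. Others given by library, such as MED9 and POLR2L, were picked with their values in view. The members and lists were chosen with earlier results of these data known. Tables and figures were made in Python 3.11.15 (matplotlib 3.10.9, numpy 2.4.6, pandas 2.3.3, scipy 1.17.1).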

Additional observations from a re-analysis of the deposited data

How the results depend on the processing

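The 2 smaller pseudocounts and robust empirical Bayes kept all 14 calls of members and added none. With no filter, 613 genes were higher and 1026 lower, and 1 and 2 members. Without the trend, 876 genes were higher and 1932 lower, and 2 members were higher and 3 lower. With size factors 9 members were higher and 2 lower, and 2012 and 1745 of all genes. The median of the members was then 0.18, beside -0.01 for all tested genes. With median centring 2117 genes were higher and 1553 lower, and 10 and 2 members. The median of the members was then 0.20, beside 0.02 for all tested genes. With quantile normalization 1757 genes were higher and 1758 lower, and 9 and 4 members. Leaving out each library in turn gave 0 to 522 higher and 0 to 1142 lower genes, and 0 to 1 higher and 0 to 2 lower members. At a TPM of at least 5 CDK19 was not tested and MED9 was called. The removal of the GC and length trend was chosen after the data were seen, and so was its use of the longest transcript of any type. In a first version with the longest coding transcript MED17 also lost its call, which with the transcripts used here it kept narrowly (limma adjusted p = 0.0487). No called member changed sign under any setting run.

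The replicate numbers are shared by the groups, but nothing in the labels says that a number marks a shared culture or day. Deviations of same-numbered libraries from their group means correlated at 0.032 across genes. With the replicate block 8 members were higher and 9 lower, 1685 and 2876 of all genes, and the added members were CCNC, MED8 and POLR2L. With 2 libraries per group, the 95% intervals of the members reached 0.17 to 1.07 to either side on the log2 scale.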
